A study of Homo sapiens with 6 samples.

Results

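The genes described here carry symbols of the DEAD and DEAH box helicases, and they were chosen by name. Most encode RNA helicases, but they include the pseudogene DDX12P and the DNA helicase DDX11. All listed symbols that consist of DDX or DHX, a number and optional letters were taken, leaving out DDX58 and DHX58, which gave 54 of 37887 listed symbols (39 DDX and 15 DHX). RNA-seq was performed on BT-549 cells, an established human triple-negative breast cancer line, in 3 control and 3 IRF1shRNA libraries. Control cells received 0.1% DMSO as vehicle, and IRF1shRNA cells received 500 ng/ml doxycycline, which switches on a short hairpin RNA against the interferon (IFN) response factor IRF1. The control titles name a control shRNA, whereas the series description names a single line carrying the inducible IRF1 vector. Under either reading only the silenced cells received doxycycline, so its effects cannot be told apart from those of IRF1 loss. Transduced cells were selected with puromycin per the methods of the study, and the series description names 1 IRF1 vector. The labels describe triplicate cultures of 1 cell line and give no other link between libraries.

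Total counts ranged from 55143808 in IRF1shRNA replicate 2 to 160436234 in IRF1shRNA replicate 3. Levels below are CPM, which are counts relative to library size, here with TMM factors that adjust for composition. In such bulk RNA, fewer cells with a transcript and less of it per cell cannot be told apart. The 54 genes together took between 0.610% and 0.667% of all counts in a library. Among controls IRF1 itself read 45.3, 48.1 and 51.5 CPM, and after silencing 13.8, 14.9 and 14.6 CPM, in the direction of the labels. Among the markers of this mesenchymal line, VIM was at 918 CPM, FN1 at 761 CPM and ZEB1 at 87.2 CPM in control cells, while CDH1, EPCAM, ESR1 and PGR were below 1 CPM. ERBB2 was at 50.8 CPM, and the leukocyte gene PTPRC and the endothelial gene PECAM1 were below 1 CPM. VIM, FN1, ZEB1 and ERBB2 were lower in IRF1shRNA cells (log2 fold changes −0.56, −0.34, −0.14 and −0.48), and their part in the results below was not tested.

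DEAD and DEAH box proteins are named after the amino acids of a conserved ATPase motif. They use ATP to open short RNA duplexes or to strip proteins from RNA, and they act at nearly every step in the life of a transcript. DEAH box members drive the rearrangements of the spliceosome, many DEAD box members process ribosomal RNA in the nucleolus, and others export, translate, store or degrade mRNA. A few members are induced by interferon. DDX60 is one of these, described as an antiviral helicase that acts with RIG-I-like receptors, and DDX60L is its neighbouring paralogue, also interferon-inducible. Whether each gene chosen by symbol, this pair included, carries the DEAD or DEAH motif was not examined.

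The promoters of DDX60 and DDX60L are shown first, because these genes stand apart in the results. They are set beside the promoter of DHX15, a spliceosome disassembly helicase, whose window held the same motif. Each line gives 150 bases read 5′ to 3′ on the strand of the gene, from RefSeq (build GRCh38.p14). The capitals mark a motif of GAAA, any 2 bases and GAAA, the repeated core of the interferon-stimulated response element that interferon regulatory factors bind. The stretches are chr4:168318753-168318902 for DDX60 and chr4:168480493-168480642 for DDX60L, each the 150 bases before the start, and chr4:24584655-24584804 for DHX15, which lies farther upstream. All 3 genes are on the minus strand.
DDX60: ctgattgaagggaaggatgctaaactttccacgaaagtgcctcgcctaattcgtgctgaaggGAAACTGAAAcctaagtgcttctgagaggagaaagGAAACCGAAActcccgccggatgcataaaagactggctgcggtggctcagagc
DDX60L: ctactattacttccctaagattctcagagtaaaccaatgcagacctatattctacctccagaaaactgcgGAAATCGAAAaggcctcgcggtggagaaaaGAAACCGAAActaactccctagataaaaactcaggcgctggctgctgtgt
DHX15: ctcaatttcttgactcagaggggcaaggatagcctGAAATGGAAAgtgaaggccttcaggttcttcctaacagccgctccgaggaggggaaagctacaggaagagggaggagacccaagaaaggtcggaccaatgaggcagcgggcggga

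The GAAA repeat was sought on both strands from 250 bases before to 50 bases after each annotated start. It was found in 3 of 49 helicase genes with a window (6.12%) and in 4.38% of the 27305 genes with a window. In DDX60 the matches began 88 and 53 bases before the start, and in DDX60L 80 and 50 bases before it, so both promoters held a pair of matches with similar spacing. DHX15 had a single match, which began 215 bases before the start. Of 498 genes tested with this motif in a window, 71 (14.3%) were downregulated over 2-fold, against 4.42% of the 12425 genes tested with a window. DDX60 and DDX60L are among the 71. Over 2-fold higher were 15 of the 498 and 406 of the 12425. Whether the motif had a part in these changes was not tested. The palindromic core of the gamma-activated site, TTCNNNGAA, was found in 6 of the 49 genes (DDX4, DDX17, DDX23, DDX25, DDX56 and DDX60), or 12.2%, against 9.38% of all genes with a window. These matches describe the letters in the windows and not factor binding.

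The helicase family was then compared between IRF1shRNA and control cells. DDX60 and DDX60L were 8.05-fold and 6.32-fold lower in IRF1shRNA cells, while the other helicase genes that changed had log2 fold changes between −0.26 and 0.42. Of the 54 genes, 50 passed the filter on low counts and were tested. In these 50 genes, 14 were upregulated and 7 downregulated with a Benjamini-Hochberg adjusted p below 0.05 (quasi-likelihood test of edgeR, 18851 genes tested). The same call held for 50.5% of all genes tested, with 24.1% upregulated and 26.4% downregulated, against 28.0% and 14.0% of the helicase genes. Past a fold change of 2 as well, 2 helicase genes were downregulated and 0 upregulated, where 4.43% of all genes were downregulated and 3.43% upregulated. At an unadjusted p under 0.05, 0 helicase genes were over 2-fold higher in edgeR, and the largest increase under any alternative, DESeq2 included, was 0.47 (DDX18).

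Most helicase transcripts are abundant, so a share among abundant genes is also given. Of 46 helicase genes whose mean reached 10 CPM, 45.7% were called in either direction, against 67.2% of the 9270 genes at this level. The median size of the log2 fold change, without regard to sign, was 0.12 in these 46 helicase genes and 0.22 in all genes at this level. The median signed log2 fold change was 0.06 over the 50 helicase genes and −0.0024 over all genes tested. The groups did not overlap for 27 of the 50 genes (18 higher and 9 lower in every IRF1shRNA library), and for 56.8% of all genes tested. By subfamily, 9 of 35 DDX genes tested were upregulated and 5 downregulated, and 5 of 15 DHX genes were upregulated and 2 downregulated. Over all genes tested, the shares were 24.1% upregulated and 26.4% downregulated.

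**Figure D1:**
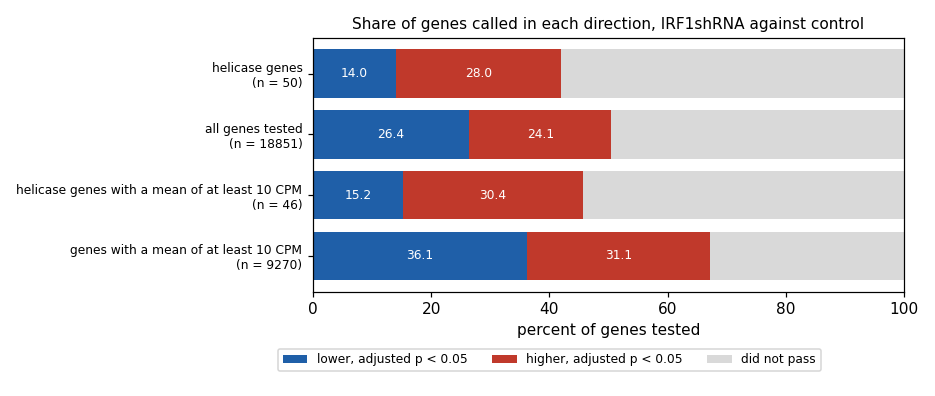
Stacked bars give the percent of genes tested that were lower, higher or did not pass an adjusted p of 0.05 in IRF1shRNA against control cells, for helicase genes and for all genes, at any level and where the mean reached 10 CPM. The share called was 42.0% of helicase genes and 50.5% of all genes, and at the higher level 45.7% and 67.2%.

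The interferon-inducible pair was examined first. The control libraries held DDX60 at 38.1, 39.3 and 43.3 CPM, and the IRF1shRNA libraries held it at 4.75, 4.45 and 5.78 CPM. All 3 silenced libraries were therefore far below all controls. DDX60 decreased from 40.2 ± 2.69 to 4.99 ± 0.696 CPM (SD, n = 3 each), which is 12.4% of its control level, with a log2 fold change of −2.99 ± 0.09 (SE) and an adjusted p of 4.34e-14 in the edgeR test. DDX60L was at 43.0, 44.6 and 45.0 CPM in controls and at 6.61, 7.04 and 7.35 CPM in IRF1shRNA libraries. This paralogue decreased from 44.2 ± 1.05 to 7.0 ± 0.369 CPM, or 15.8% of control, a log2 fold change of −2.66 ± 0.06 (edgeR, adjusted p 4.81e-15). The spread of both genes within a group was small beside the difference between groups.

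DDX60 and DDX60L lie on chromosome 4 in the same orientation, 37.9 kb apart in GENCODE 29. Their transcripts share few exact stretches, since 0.619% of the 50-base words of DDX60 were also found in DDX60L. Within a library, the count of DDX60 was 0.886, 0.880 and 0.961 times that of DDX60L in controls and 0.719, 0.632 and 0.787 times in IRF1shRNA libraries. The ratio was thus lower in every silenced library. The log2 ratio differed by −0.36 between groups, at −0.14 ± 0.07 and −0.49 ± 0.16 (SD, n = 3 each), with p = 0.1 in a two-sided exact permutation test, the smallest p that 3 against 3 libraries allow. This ratio does not depend on how libraries are scaled, and it was compared after the values of both genes were seen.

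**Figure D2:**
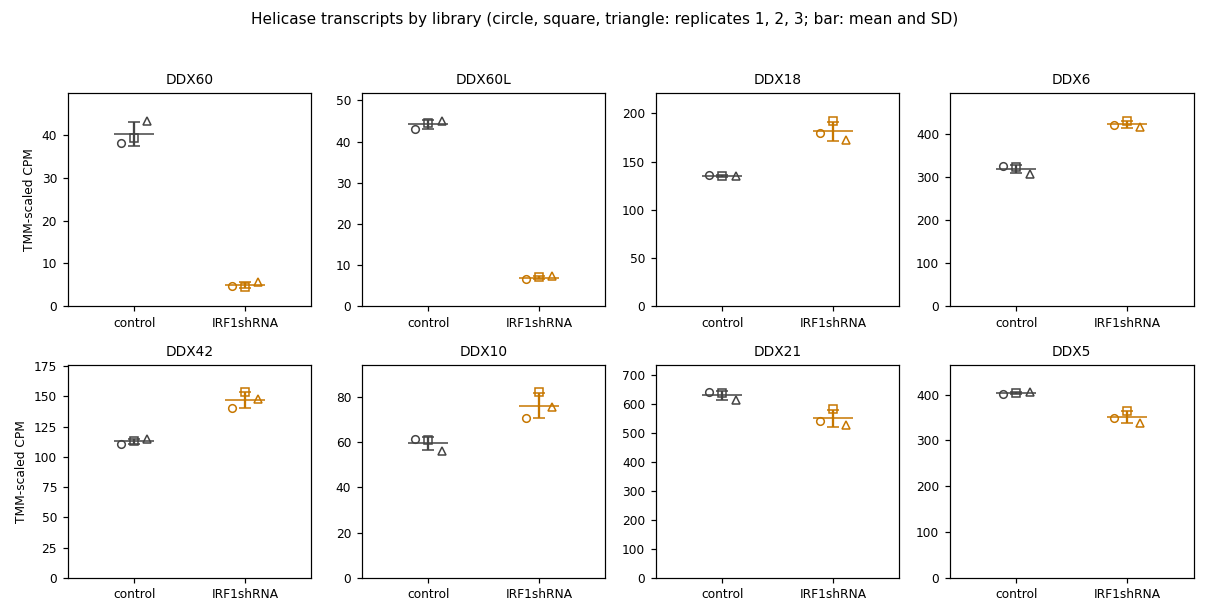
TMM-scaled CPM of 8 helicase genes in each library, with control libraries on the left of each panel, IRF1shRNA libraries on the right, and bars for the mean and SD of 3 replicates. DDX60 and DDX60L drop to 12.4% and 15.8% of control, while the other 6 genes, all called, shift by smaller steps. Their groups do not overlap, as held for 56.8% of all genes tested.

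Helicases that process ribosomal RNA formed the largest group. Of 16 genes, 5 were upregulated and 2 downregulated, beside 24.1% and 26.4% of all genes tested. The other 9 did not pass the test, and the median log2 fold change of the 16 was 0.11. With upper quartile scaling or library size only, 8 were upregulated, with DDX31, DDX51 and DDX52 added, where 27.4% and 27.9% of all genes were upregulated. DDX18, a nucleolar helicase of large-subunit assembly, was at 136, 135 and 135 CPM in controls and at 180, 192 and 172 CPM in IRF1shRNA libraries. The 3 controls were nearly identical and all silenced libraries were higher. DDX18 had the largest estimated increase of the family, a log2 fold change of 0.42 ± 0.05 (SE) and an adjusted p of 5.20e-07 by edgeR's test. DDX10, also a nucleolar helicase of pre-ribosomal RNA processing, was at 61.5, 61.0 and 56.2 CPM in controls and at 70.9, 82.0 and 75.7 CPM in IRF1shRNA libraries (0.35 ± 0.05). Smaller increases were found for DDX56 (0.18 ± 0.04), DDX50 (0.15 ± 0.05) and DHX33 (0.14 ± 0.04), where DHX33 promotes ribosomal RNA synthesis. The DDX50 call was lost without IRF1shRNA replicate 2 (adjusted p 0.0569 in edgeR).

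DDX21, which couples ribosomal RNA transcription to its processing, went the other way. It was at 641, 640 and 614 CPM in controls and at 541, 584 and 530 CPM in IRF1shRNA libraries, so every silenced library was below every control. The log2 fold change of DDX21 was −0.20 ± 0.05 (adjusted p 0.00178, edgeR). DDX49 was also lower, at −0.17 ± 0.05 (60.5 ± 4.36 against 53.6 ± 0.347 CPM), but its call was lost without control replicate 3, the highest control (adjusted p 0.0663 in edgeR). Among the 9 genes that did not pass were DDX52 (0.17 ± 0.07, adjusted p 0.0576 in edgeR, and called in 9 of the 14 alternatives), DDX47, DDX51, DDX31 and DDX24 with estimates above 0, and DDX27, DDX54, DHX37 and DDX55 with estimates from −0.07 to −0.0031.

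DDX50 and DDX21 are neighbouring paralogues on chromosome 10, 9.28 kb apart, and both were called, in opposite directions. Within a library the count of DDX50 was 0.147, 0.147 and 0.146 times that of DDX21 in controls and 0.189, 0.186 and 0.183 times in IRF1shRNA libraries. The log2 ratio differed by 0.34 between groups, at −2.77 ± 0.01 and −2.42 ± 0.02 (SD, n = 3 each), with p = 0.1 in the two-sided exact permutation test. A ratio was also taken for the transcriptional coregulators DDX17 and DDX5, which lie on different chromosomes and of which only DDX5 was called in the main fit. DDX17 had 1.38, 1.36 and 1.39 times the count of DDX5 in controls and 1.66, 1.66 and 1.76 times in IRF1shRNA libraries. That log2 ratio differed by 0.30, at 0.46 ± 0.02 and 0.76 ± 0.05 (SD, n = 3 each), with p = 0.1 in the same exact permutation test. In CPM, DDX50 and DDX17 were higher, and DDX21 and DDX5 lower, in every silenced library than in any control. Both ratios therefore had to separate, so their p was fixed in advance and adds nothing to the single genes. Like the first pair, both were picked with their values known. With 3 pairs compared in all, the adjusted p is 0.1 for each in the permutation test.

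**Figure D3:**
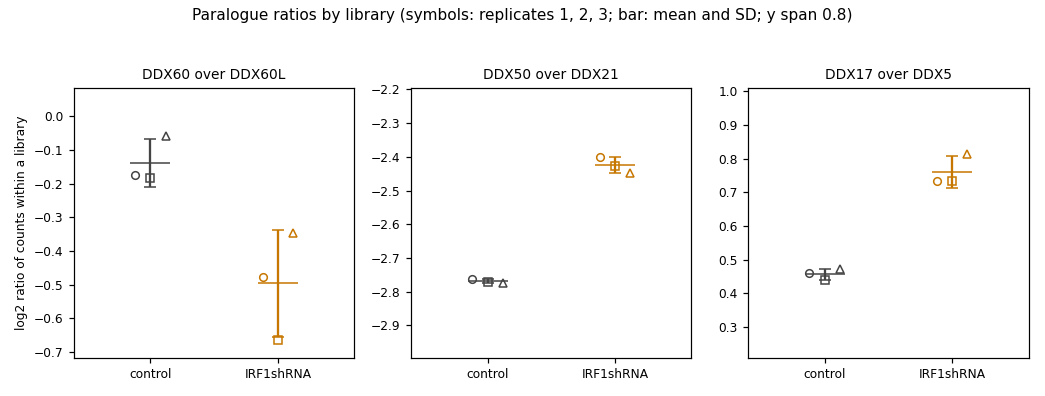
The log2 ratio of counts within a library for 3 pairs of paralogues, with a symbol for each replicate, bars for mean and SD, and the same span of 0.8 on every y axis. DDX60 over DDX60L was lower, and DDX50 over DDX21 and DDX17 over DDX5 were higher, in every IRF1shRNA library than in any control.

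Among spliceosomal helicases the estimates were spread around 0. Of 10 genes, 2 were upregulated and 1 downregulated, beside 24.1% and 26.4% of all genes tested. The other 7 did not pass, and the median log2 fold change of the 10 was 0.00. With upper quartile scaling, library size only or a filter at 1 CPM, 4 were upregulated, with DHX16 and DHX38 added, where 27.4%, 27.9% and 32.5% of all genes were upregulated. DDX42, which associates with the SF3B complex at the branch site, was at 110, 113 and 115 CPM in controls and at 140, 153 and 148 CPM in IRF1shRNA libraries. The groups were well separated, and the log2 fold change was 0.38 ± 0.04 (adjusted p 1.16e-06, edgeR). DDX23, the U5 snRNP helicase that admits the U6 snRNA, was at 150, 150 and 150 CPM in controls and at 168, 185 and 174 CPM in IRF1shRNA libraries, with a log2 fold change of 0.23 ± 0.04. DHX35 was downregulated, from 27.8 ± 0.581 to 23.3 ± 0.281 CPM (−0.25 ± 0.06, adjusted p 0.00101 in edgeR). The DEAH box helicases that drive successive steps of splicing did not pass the test: DHX16 was at 0.10 ± 0.05, DHX38 at 0.07 ± 0.04, DHX8 at 0.03 ± 0.05 and DHX15 at −0.04 ± 0.04. The 95% interval of DHX15, whose promoter is shown above, ran from −0.13 to 0.06. DDX46 (−0.03) and DDX41 (−0.11, adjusted p 0.0723 in edgeR) did not pass either, although DDX41 was called lower with the replicate block and without control replicate 1. DDX39B, also counted in this group, was at 0.173 CPM in controls, too scarce to show a change.

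In the translation and mRNA decay group, 3 of 7 genes tested were upregulated and 0 downregulated, beside 24.1% and 26.4% of all genes tested. At an unadjusted p under 0.05 in edgeR, 0 of this group were lower. DDX6, which activates decapping and builds P-bodies, was at 326, 325 and 309 CPM in controls and at 422, 431 and 417 CPM in IRF1shRNA libraries. Every silenced library was above every control, and the mean rose to 132% of control, with a log2 fold change of 0.40 ± 0.04 (SE) and an adjusted p of 3.15e-07 by edgeR's test. DDX1 was counted in this group, although it is a member of the tRNA ligase complex. It was at 139, 137 and 134 CPM in controls and at 163, 185 and 164 CPM in IRF1shRNA libraries (0.32 ± 0.05). DHX29, which helps the small ribosomal subunit scan structured leaders, rose by 0.19 ± 0.04 on the log2 scale. DDX3X, a helicase of translation initiation, was at 642 ± 14.4 CPM in controls and at 606 ± 22.5 CPM in IRF1shRNA cells and did not pass (−0.09 ± 0.04, adjusted p 0.119 in edgeR), but was called lower without IRF1shRNA replicate 2 (adjusted p 0.0286 in edgeR). DHX9, DHX34 and DHX36 did not pass, with estimates from 0.0018 to 0.08. DHX9 was called higher with library size only (adjusted p 0.0331 in edgeR), and DHX34 without IRF1shRNA replicate 2 (adjusted p 0.0192 in edgeR).

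The remaining groups were small, and their counts stand beside 24.1% of all genes tested upregulated and 26.4% downregulated. DDX5 was the 1 member called among 4 helicases (with DDX17, DDX20 and DHX9) of transcription, snRNP assembly and microRNA processing, at 401, 403 and 405 CPM in controls and 349, 364 and 338 CPM in IRF1shRNA libraries (−0.20 ± 0.04, adjusted p 5.88e-04 in edgeR). Its paralogue DDX17 had an estimate of 0.10 ± 0.04 that lay at the threshold (adjusted p 0.0509, with a range from 0.00282 to 0.169 over the alternatives in edgeR and DESeq2), and DDX20, a member of the SMN complex, was at 0.06. Both mitochondrial helicases were upregulated, DDX28 by 0.20 ± 0.06 and DHX30 by 0.14 ± 0.04. The DDX28 call was lost without control replicate 1 or IRF1shRNA replicate 1, and the DHX30 call without control replicate 1 or 2. None of the 4 export helicases tested passed (DDX19A, DDX19B, DDX39A and DDX39B), with 0 at an unadjusted p under 0.05 in edgeR and 0 called by DESeq2. The DNA helicase of sister chromatid cohesion DDX11 was at −0.08 ± 0.04 and did not pass, nor did its pseudogene DDX12P (0.08 ± 0.08). Of the members with less settled roles, DHX32 was lower (−0.26 ± 0.06), DHX57 (0.23 ± 0.05) and DHX40 (0.16 ± 0.05) were higher, and DDX59 did not pass. The DHX40 call was lost without control replicate 2 or IRF1shRNA replicate 2.

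**Figure D4:**
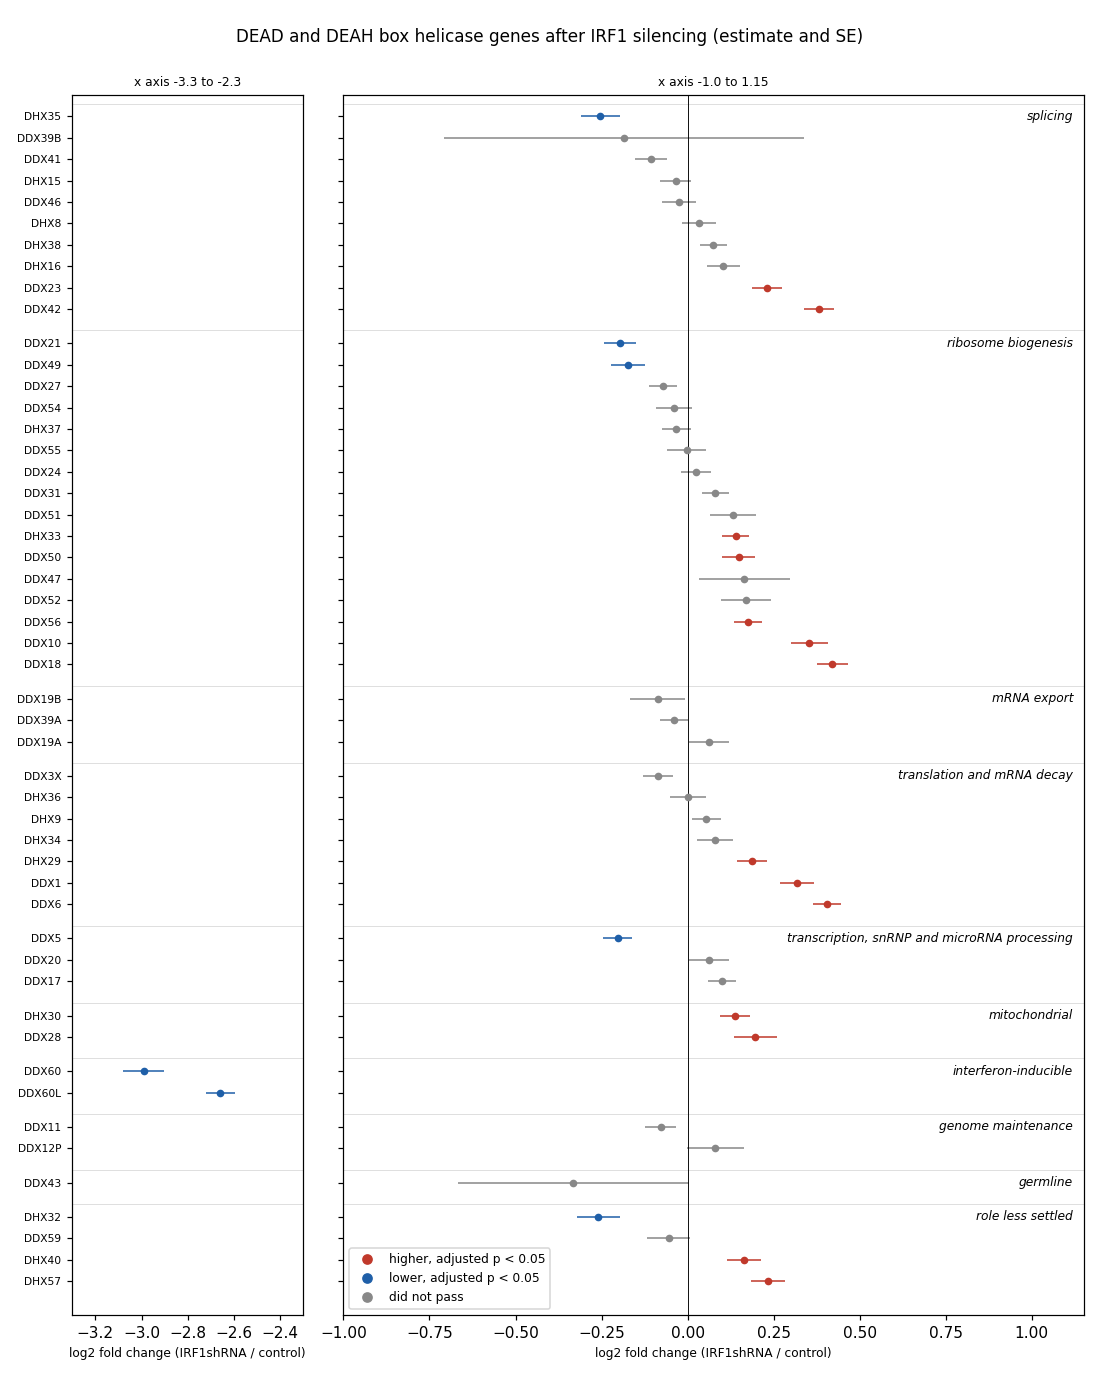
The log2 fold change and its SE for the 50 helicase genes tested, grouped by role, with DDX60 and DDX60L in a panel of their own. Apart from this pair, called genes lie between −0.26 and 0.42, with 14 higher and 5 lower. Over all genes tested, 24.1% were higher and 26.4% lower.

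Levels of different members were compared per kilobase of exon, where the length joins all annotated exons of a gene. The order therefore depends on the annotation. DDX3X had the highest CPM in control cells (642, against 632 for DDX21), but its joined exons span 15.9 kb against 5.02 kb. Per kb, DDX21 was the highest, at 126 CPM per kb in control cells and 110 in IRF1shRNA cells. It was followed over all libraries by DHX9 (71.0 CPM per kb), DDX17 (57.4), DDX5 (51.0) and DDX1 (40.1). DHX9 did not pass the test (log2 fold change 0.05 ± 0.04, adjusted p 0.307 in edgeR). In control cells DDX17 and DDX5 were close, at 55.4 and 54.6 CPM per kb, and in IRF1shRNA cells they were at 59.4 and 47.4. DDX60 and DDX60L were at 5.96 and 3.64 CPM per kb in control cells and at 0.740 and 0.576 in IRF1shRNA cells. By the level in control cells alone they ranked 37 and 42 of the 54 genes.

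**Figure D5:**
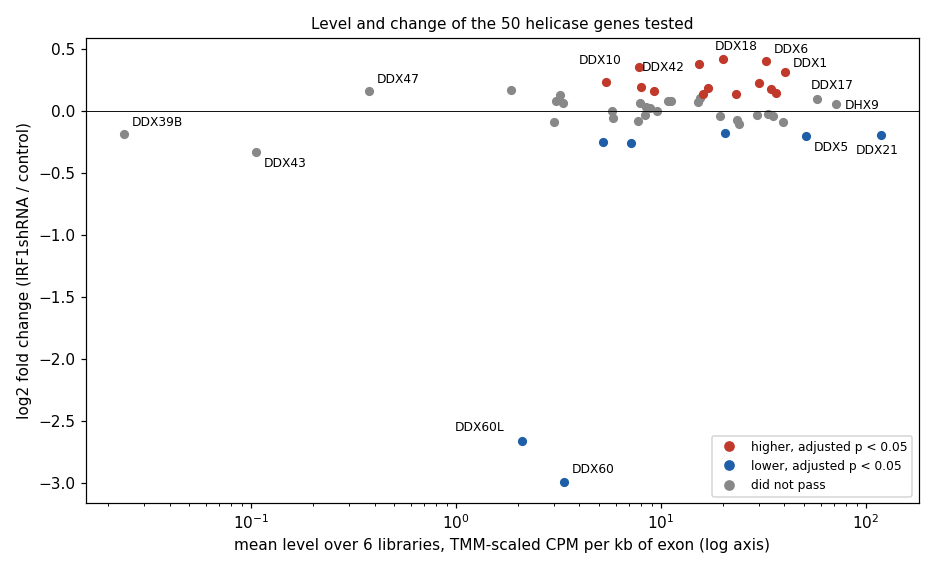
The mean level over 6 libraries, in TMM-scaled CPM per kb of exon on a log axis, against the log2 fold change of the 50 helicase genes tested. DDX60 and DDX60L lie far below the others at −2.99 and −2.66, and DDX21, the highest member per kb, is at −0.20.

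Germline helicases were at or near the limit of detection. DDX53 had 0 counts in all 6 libraries, which allows up to 0.0182 to 0.0540 CPM depending on the library, where 3 counts are taken as the limit. This limit takes counts as independent, which was not tested and may not hold given the excess of even counts described below. DDX4, the VASA helicase of germ cells, had 0 to 6 counts and DDX25 0 to 20, and neither was tested, nor was DDX3Y. DDX43, a cancer/testis antigen, was tested at 0.338 ± 0.0910 CPM in controls and 0.254 ± 0.0804 CPM in IRF1shRNA cells, with a log2 fold change of −0.33 ± 0.34. Its 95% interval ran from −1.04 to 0.38, so no change was detectable at this depth.

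Some members overlap other genes or share sequence with them. DDX39B, a core helicase of splicing and export, had 8 to 31 counts per library and its log2 fold change had a 95% interval from −1.29 to 0.92. It lies at 31530219 to 31542448 on chromosome 6 (GENCODE 29), and 30.8% of its exonic bases overlap the read-through gene ATP6V1G2-DDX39B on the same strand. For DDX47, at 1.78 ± 0.163 CPM in controls, that share was 36.5%, with APOLD1. For DDX19B and DDX19A it was 15.7% and 23.8%. The part of this overlap in the low values was not tested, and levels of these genes are uncertain. DDX12P shared 57.7% and DDX11 17.7% of its 50-base words with transcripts of other genes, so reads could be split between them. Of the called genes, DHX40 shared 14.4% of such words, chiefly with its pseudogene DHX40P1, and DDX50 shared 8.03%. On the opposite strand, 22.5% of the exonic bases of DDX28 overlap DUS2 and 10.4% of those of DHX32 overlap BCCIP, and without a stated strand setting reads of these partners cannot be told apart.

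Relatives and partners of the family were examined from lists of genes without a DDX or DHX symbol. Of 12 relatives tested, 6 were upregulated and 2 downregulated, or 66.7% called beside 50.5% of all genes, with a median log2 fold change of 0.15. IFIH1, the double-stranded RNA sensor MDA5, decreased from 44.1 ± 5.97 to 4.02 ± 0.759 CPM (−3.47 ± 0.12). HFM1, a meiotic helicase, was at 0.484 ± 0.0803 and 1.02 ± 0.368 CPM (1.01 ± 0.25). Its IRF1shRNA libraries read 0.802, 1.44 and 0.808 CPM, so the highest value came from replicate 2, the library with the lowest total count. YTHDC2, a DEAH box helicase that reads N6-methyladenosine (0.37 ± 0.04), and ASCC3, which rescues collided ribosomes (0.34 ± 0.05), were upregulated. The translation helicase EIF4A2 was downregulated (−0.22 ± 0.05) and the spliceosomal helicase SNRNP200 upregulated (0.15 ± 0.04), both named after their values were seen. Of 31 cofactors, 9 were upregulated and 6 downregulated (48.4% called, near the 50.5% of all genes), with a median of 0.04 and none over 2-fold, also at an unadjusted p under 0.05 (0 in edgeR). CMTR1, a cap methyltransferase that binds DHX15, fell from 70.3 ± 1.01 to 41.6 ± 1.05 CPM (−0.76 ± 0.04). EIF4B, which stimulates the eIF4A helicases, rose (0.45 ± 0.04), as did NUP214, the nuclear pore partner of DDX19 (0.38 ± 0.04). The partners of DDX6, also chosen after their values were seen, were mixed: EDC3 (0.35), EIF4ENIF1 (0.37) and LSM14B (0.28) were upregulated, PATL1 (−0.40) was downregulated, and LSM14A and CNOT1 did not pass.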

How the data were processed

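The deposited values are raw counts by gene symbol for 6 libraries made with a stranded mRNA kit. Per the labels, the submitters' processing notes name CASAVA 1.8.2, STAR 2.7.9a, featureCounts, DESeq2 1.24.0 and build GRCh38.p7. The annotation release, strand setting and treatment of multimapping reads are not given in the sources used here. Between 72.1% and 75.2% of counts from 2 to 11 were even, the cause of which was not tested, and halved counts were tried.

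Counts were tested with edgeR 4.0.16 (R 4.3.3): quasi-likelihood, TMM, filterByExpr with a minimum count of 10, group as the single factor, and Benjamini-Hochberg adjustment over 18851 genes. The SE is the log2 fold change divided by the square root of F. DESeq2 1.42.0, other scalings and filters, leaving out each library, and the replicate number as a block were alternatives. The test was checked on simulated data. Exact permutation tests used scipy 1.17.1. Exon lengths, loci and shared words of 50 bases came from GENCODE 29. Promoters matched 49 of 54 genes by symbol. Genes were named by fixed criteria: those past both thresholds, the largest changes in each direction, the highest levels, the smallest adjusted p of each list, near-identical copies and members below 1 CPM. Others are said to be chosen after their values were seen, or complete a group. The members and lists were chosen with earlier results of these data known. Floors cover counting error only, and p-values measure the spread between these cultures.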

Additional observations from a re-analysis of the deposited data

How the results depend on the processing

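Of 21 helicase genes called, 16 kept their direction and call in all 14 alternative fits, DDX60 and DDX60L among them. The other 5 (DDX28, DDX49, DDX50, DHX30 and DHX40) each lost the call when 1 library was left out. Across these alternatives the number of upregulated helicase genes ran from 12 to 21, and that of downregulated genes from 6 to 8. In the main fit they were 14 and 7, beside 24.1% and 26.4% of all genes. There were 21 upregulated under library size only and 20 under upper quartile scaling. Under these scalings the median log2 fold change of all genes moved from −0.0024 to 0.049 and 0.041, and 27.9% and 27.4% of all genes were upregulated. At an adjusted p under 0.01, 10 were upregulated and 7 downregulated, beside 18.5% and 21.8% of all genes. Deviations of same-numbered libraries correlated at −0.0543, 0.0435 and 0.0731, and those of differently numbered libraries at −0.0976 to 0.0622. The replicate numbers were therefore not used as pairs in the main fit, though such weak values cannot show that none existed. With the replicate block 15 helicase genes were upregulated and 8 downregulated, near the 14 and 7 of the main fit. The share of all genes called under the block is not given here, so these counts have no background of their own. The median log2 fold change of the helicase genes less that of all genes was 0.0603, and it moved to 0.030 with no filter and ranged from 0.0194, without IRF1shRNA replicate 2, to 0.063 across fits that left out 1 library.

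Sign changes were limited to genes that did not pass, all with small estimates or few counts. With DESeq2 size factors, the sign changed for DDX55 (0.0043). With upper quartile scaling, the sign changed for DDX39A (0.0040), DDX46 (0.019), DDX54 (0.0050), DDX55 (0.041), DHX15 (0.0085), DHX37 (0.011). With library size only, the sign changed for DDX39A (0.011), DDX46 (0.025), DDX54 (0.013), DDX55 (0.047), DHX15 (0.015), DHX37 (0.018). With no filter, the sign changed for DHX36 (−0.00099). Where 1 CPM was required in 3 samples, it changed for DDX55 (0.021). With the replicate block, the sign changed for DHX36 (−0.00033). With halved counts, the sign changed for DDX55 (0.00046). Across fits that left out 1 library, the log2 fold change ranged from −0.0031 to 0.059 for DDX24, −0.66 to 0.35 for DDX39B, −0.040 to 0.027 for DDX55, −0.063 to 0.014 for DDX46, −0.072 to 0.020 for DDX54, −0.062 to 0.046 for DHX36, −0.0030 to 0.12 for DDX20, −0.0085 to 0.075 for DHX8 and −0.012 to 0.13 for DDX12P. The cause was not tested.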
